A study of Rattus norvegicus with 18 samples.

Results

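Phenylephrine (PE), an agonist of alpha1-adrenergic receptors, was set against vehicle in cultured heart muscle cells of newborn rats, with no other drug present. The 3 PE libraries and the 3 Vehicle libraries were picked by their group labels, which makes 6 of the 18 libraries of the series. PE cells were ventricular myocytes of Wistar rats at day 3 after birth that were kept in AraC, which is toxic to cells that divide, for 48 h, then 24 h without serum and then 10 µM PE for 48 h, with the medium and drug replaced at 24 h. Vehicle cells had the same isolation, AraC, serum starvation and medium change with no PE. The other 12 libraries held PE with Senexin A, an inhibitor of the Mediator kinase CDK8, at 10 or 50 µM, and Senexin A alone at those doses. They are used here only for the spread between libraries and for the tests of whether the PE response differed in the presence of the inhibitor. Nothing in the labels says whether the replicates were separate cultures or litters, so the p-values measure the spread between these libraries, which may be technical.

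Alpha1-adrenergic receptors couple through the G protein Gq to phospholipase C, which raises calcium and diacylglycerol and engages protein kinase C, calcineurin and the MAP kinases. In neonatal ventricular myocytes this makes the cells enlarge without division, add sarcomeres and turn on genes of the fetal heart such as skeletal alpha-actin and the natriuretic peptides. AraC is used in such cultures to hold back fibroblasts and other dividing cells, but does not remove all of them.

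Levels are the deposited FPKM values, which are fragment counts scaled to transcript length and to the size of the library, so they can be compared between genes. Changes are log2 fold changes of FPKM + 1 with their standard error (SE), PE minus Vehicle, and a gene is said to rise or fall where its Benjamini-Hochberg adjusted p over 10478 tested genes was under 0.05 in limma's moderated test. Values of single libraries are given in the order of replicates 1, 2 and 3, and group levels as mean ± SD (n = 3 each). FPKM summed to between 810428 and 853958 in PE libraries and between 610324 and 660958 in Vehicle libraries, and the absolute number of reads is unknown. Depth relative to Vehicle replicate 2 ran from 0.876 to 1.109 over the 6 libraries. Libraries of a group correlated with r from 0.989 to 0.992 across genes. Of the genes described, Idi1, Rgs2, Prkg1, Ctnna1, Pln, Nap1l5, Myh6, Myh7, Tuba1a and Tubb4b share their locus with another row of the table, so their values are uncertain. In bulk RNA, fewer cells of a type and less RNA per cell cannot be told apart.

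PE changed 3205 of the 10478 tested genes (30.6%), of which 1874 rose (17.9%) and 1331 fell (12.7%). Changes of at least 2-fold were rarer and mostly upward, with 260 genes higher (2.48%) and 74 lower (0.706%). The genes that rose included 33 with a log2 fold change of at least 2, and the genes that fell included 2. Groups did not overlap in 5000 of all tested genes (47.7%), and in 3145 of the called ones. The call of 1793 genes held in all 6 fits that left out 1 of the PE or Vehicle libraries. Among genes called, 58.5% were higher, and after quantile normalization 47.7% were, so the split between rises and falls depends on how libraries are scaled.

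**Figure D1:**
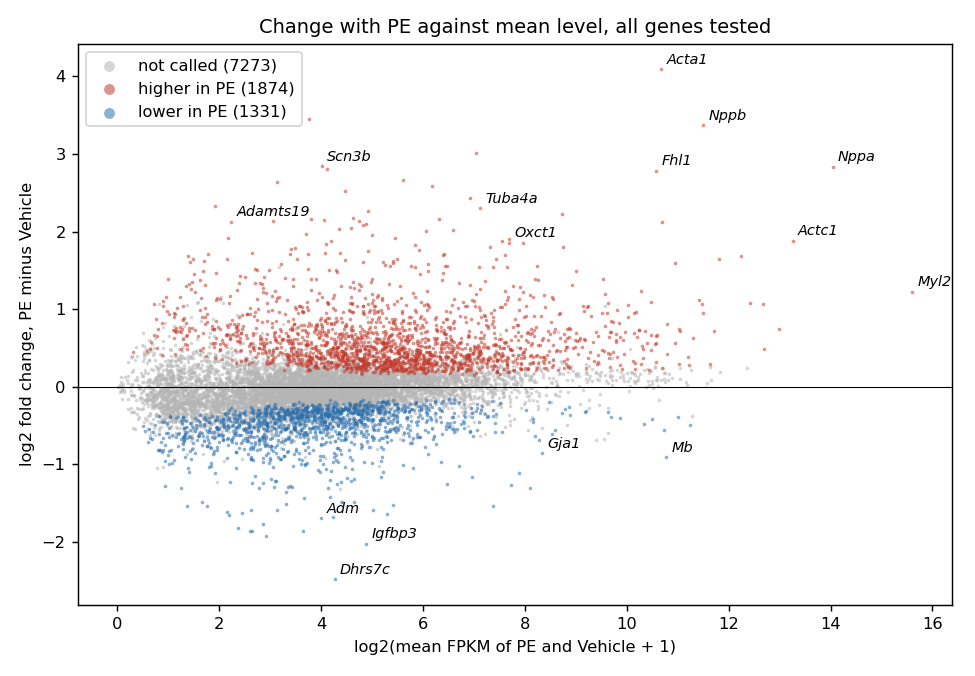
Log2 fold change, PE minus Vehicle (vertical axis), against log2 of the mean FPKM of both groups plus 1 (horizontal axis), 1 point per tested gene, red for genes called higher in PE, blue for genes called lower and grey for the rest. The upper right holds abundant contractile and natriuretic peptide genes such as Acta1, Nppb and Nppa, and no gene called lower stands as far from 0 as they do.

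The largest rise was that of Acta1, the skeletal alpha-actin that the fetal heart expresses (chromosome 19, bases 67389899 to 67392911 in the rn5 build). It stood at 3396, 3002 and 2837 FPKM in PE libraries, against 219, 169.8 and 155 FPKM in Vehicle libraries. Groups lay far apart, with the lowest PE library above 10 times the highest Vehicle library, and the fitted change was 4.09 ± 0.18 (adjusted p = 1.1e-09). Nppb, the gene of brain natriuretic peptide (chromosome 5, bases 168454331 to 168455633), stood at 5434, 5318 and 4911 FPKM in PE libraries, against 923, 468 and 295 FPKM in Vehicle libraries. Its PE libraries were close together and its Vehicle libraries spread widely (3.37 ± 0.33, adjusted p = 2.1e-06). Nppa, the gene of atrial natriuretic peptide (chromosome 5, bases 168466309 to 168467618), stood at 32018, 26212 and 27488 FPKM in PE libraries, against 9359, 4409 and 1534 FPKM in Vehicle libraries. Here too the spread lay in Vehicle and the groups did not overlap (2.84 ± 0.45, adjusted p = 0.00025). After quantile normalization the change of Nppa was 1.52.

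The promoters of Acta1, Nppb, Fhl1 and Xirp2 are shown because these genes are among the 8 largest rises and hold matches to motifs of muscle transcription factors. Each is the RefSeq sequence (GRCr8 build) from 250 bases before the start to 50 after it, 5′ to 3′ on the gene's strand, with matches to the motifs searched in capitals. The capitals mark a CArG box (the site of serum response factor) and then an M-CAT site (the site of TEAD factors) in Acta1, an M-CAT site on the other strand and then a GATA site in Nppb, a CArG box in Fhl1, and an AP-1 site and then a MEF2 site in Xirp2. The windows are chr19:68784145-68784444 for Acta1 on the minus strand, chr5:163699758-163700057 for Nppb on the plus strand, chrX:139638246-139638545 for Fhl1 on the plus strand and chr3:72533936-72534235 for Xirp2 on the plus strand.
Acta1: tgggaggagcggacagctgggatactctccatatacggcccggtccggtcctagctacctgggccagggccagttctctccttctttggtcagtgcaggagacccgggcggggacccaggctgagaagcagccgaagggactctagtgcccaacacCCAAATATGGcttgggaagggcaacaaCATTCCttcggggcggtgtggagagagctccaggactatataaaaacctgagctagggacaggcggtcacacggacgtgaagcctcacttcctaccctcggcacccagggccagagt
Nppb: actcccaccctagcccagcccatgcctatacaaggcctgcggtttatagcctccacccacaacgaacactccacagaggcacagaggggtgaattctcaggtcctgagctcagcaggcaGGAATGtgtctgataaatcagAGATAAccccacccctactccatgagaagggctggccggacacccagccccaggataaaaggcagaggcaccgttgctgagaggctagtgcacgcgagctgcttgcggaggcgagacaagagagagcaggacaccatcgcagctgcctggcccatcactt
Fhl1: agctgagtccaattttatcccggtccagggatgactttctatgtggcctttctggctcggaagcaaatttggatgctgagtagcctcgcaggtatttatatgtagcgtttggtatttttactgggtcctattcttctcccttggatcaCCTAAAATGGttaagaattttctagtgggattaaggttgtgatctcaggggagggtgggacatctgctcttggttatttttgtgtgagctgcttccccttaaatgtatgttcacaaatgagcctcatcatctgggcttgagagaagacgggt
Xirp2: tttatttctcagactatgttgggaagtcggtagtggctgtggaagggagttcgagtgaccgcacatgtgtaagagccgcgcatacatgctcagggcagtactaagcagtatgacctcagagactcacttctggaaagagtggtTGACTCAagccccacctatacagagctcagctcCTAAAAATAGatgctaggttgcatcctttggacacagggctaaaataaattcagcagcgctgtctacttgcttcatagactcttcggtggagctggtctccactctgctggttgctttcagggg

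In Acta1 the CArG box lay at -94 to -85 and the M-CAT site at -67 to -62 from the start. In Nppb the M-CAT site lay at -131 to -126 and the GATA site at -110 to -105. The CArG box of Fhl1 lay at -102 to -93, and in Xirp2 the AP-1 site lay at -107 to -101 and the MEF2 site at -74 to -65. The promoter of Nppa, shown by the same table, held none of the 6 motifs in these letters and window.

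Xirp2 and Fhl1, whose promoters are printed above, were also among the 8 largest rises. Xirp2, an actin-binding protein found at intercalated discs (chromosome 3, bases 60181189 to 60274634), stood at 235, 262 and 198 FPKM in PE libraries, against 43.1, 22.9 and 21.3 FPKM in Vehicle libraries (3.01 ± 0.26, adjusted p = 7.9e-07). Fhl1, a LIM protein of the sarcomere that takes part in stretch sensing (chromosome X, bases 153743580 to 153803160), stood at 2739, 2757 and 2469.5 FPKM in PE libraries, against 449.7, 342 and 368 FPKM in Vehicle libraries (2.78 ± 0.14, adjusted p = 5.3e-09). In these 2 genes every PE library was above 4 times the highest Vehicle library. Several genes known mainly from skeletal muscle rose with them. Casq1, the calsequestrin of fast skeletal fibres (chromosome 13, bases 95113781 to 95123470), stood at 116, 57.0 and 78.1 FPKM in PE libraries, against 16.5, 9.18 and 10.7 FPKM in Vehicle libraries (2.67 ± 0.36, adjusted p = 5.4e-05). Myl1, the fast skeletal myosin light chain, stood at 26.7, 8.81 and 7.71 FPKM in PE libraries, against 1.31, 0.905 and 1.25 FPKM in Vehicle libraries. PE replicate 1 stood well above the other PE libraries, all PE libraries were above all Vehicle libraries, and the change of Myl1 was 2.63 ± 0.62 (adjusted p = 0.0048). Eno3, the muscle enolase, rose by 2.58 ± 0.18 to 123 ± 26.1 FPKM in PE, against 19.3 ± 2.01 FPKM in Vehicle. Sypl2, a membrane protein of the muscle triad (chromosome 2, bases 230472384 to 230487115), stood at 26.4, 32.0 and 29.9 FPKM in PE libraries, against 4.34, 3.14 and 2.74 FPKM in Vehicle libraries (2.80 ± 0.21, adjusted p = 2.3e-07). The voltage-gated sodium channel subunit Scn3b rose by 2.85 ± 0.24, Tceal7 by 3.46 ± 0.30 and Yipf7 by 2.52 ± 0.32. The isopentenyl diphosphate isomerase Idi1 rose by 2.44 ± 0.25 and the tubulin Tuba4a by 2.30 ± 0.19. Bdkrb2, the bradykinin B2 receptor, stood at 5.34, 5.74 and 4.83 FPKM in PE libraries, against 0.334, 0.292 and 0.148 FPKM in Vehicle libraries, and its change was 2.33 ± 0.19 (adjusted p = 3.8e-07), or 3.95 with a pseudocount of 0.1.

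**Figure D2:**
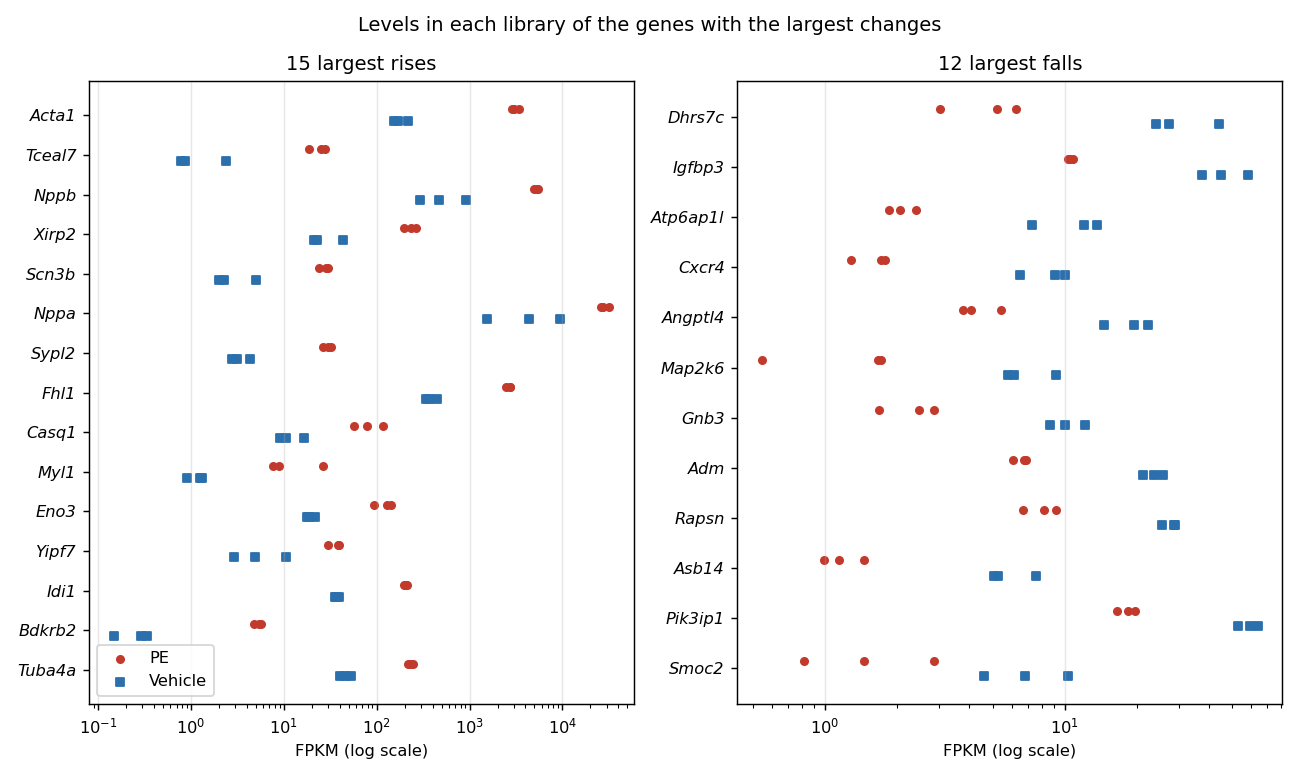
FPKM on a log axis in each library (red circles, PE; blue squares, Vehicle; 3 libraries each) of the 15 genes with the largest rises (left) and the 12 with the largest falls (right), chosen among called genes whose groups do not overlap. The Vehicle libraries of Nppa and Nppb spread more widely than their PE libraries, and the PE libraries of Smoc2 and Map2k6 spread more widely than those of Igfbp3.

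Falls were smaller than rises. Dhrs7c, a dehydrogenase-like protein of the sarcoplasmic reticulum (chromosome 10, bases 54098500 to 54116883), stood at 5.23, 3.03 and 6.24 FPKM in PE libraries, against 23.9, 27.2 and 43.9 FPKM in Vehicle libraries, the largest fall by this rule (-2.48 ± 0.33, adjusted p = 4.9e-05). Igfbp3, a carrier of insulin-like growth factors (chromosome 14, bases 81091987 to 81099675), stood at 10.3, 10.5 and 10.9 FPKM in PE libraries, against 44.6, 37.2 and 58.1 FPKM in Vehicle libraries (-2.02 ± 0.14, adjusted p = 9.3e-08). Its PE libraries were nearly equal, and each lay far below the lowest Vehicle library. Cxcr4, the receptor of the chemokine CXCL12 (chromosome 13, bases 50394128 to 50398032), stood at 1.79, 1.72 and 1.28 FPKM in PE libraries, against 6.51, 9.12 and 9.97 FPKM in Vehicle libraries (-1.86 ± 0.35, adjusted p = 0.00088). Map2k6, a kinase that activates p38, stood at 1.71, 0.547 and 1.66 FPKM in PE libraries, against 5.77, 6.14 and 9.17 FPKM in Vehicle libraries (-1.82 ± 0.27, adjusted p = 0.00011). Secreted factors among the falls were Angptl4, an inhibitor of lipoprotein lipase (-1.86 ± 0.22), Adm, the vasodilator peptide adrenomedullin (-1.69 ± 0.19), and Smoc2, a calcium-binding matrix protein (-1.62 ± 0.34). Pik3ip1, a brake on phosphoinositide 3-kinase (chromosome 14, bases 84248813 to 84260746), stood at 19.6, 18.4 and 16.5 FPKM in PE libraries, against 59.3, 63.7 and 52.8 FPKM in Vehicle libraries (-1.64 ± 0.11, adjusted p = 8.1e-08). Rapsn, which clusters acetylcholine receptors at the nerve-muscle synapse, fell to 8.0 ± 1.23 FPKM in PE, against 27.7 ± 1.94 FPKM in Vehicle (-1.68 ± 0.12). The G protein beta subunit Gnb3 changed by -1.76 ± 0.20, Asb14, of a family of ubiquitin ligase adaptors, by -1.66 ± 0.16 and Atp6ap1l by -1.92 ± 0.20, each lower in PE. No gene stood at the floor of the table in all libraries of 1 group and at 1 FPKM or more in all libraries of the other.

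In absolute FPKM the rises were concentrated in a few transcripts. The 10 largest gains in mean FPKM summed to 103177, which is 50.9% of the difference of 202512 between the mean FPKM sums of the groups. They were Myl2, Nppa, Actc1, Ankrd1, Nppb, Tnnc1, Uqcr10, Tpm1, Myl3 and Acta1. The 10 most abundant genes made up 19.2% to 20.7% of the sum in PE libraries and 9.64% to 12.4% in Vehicle libraries. Myl2, the ventricular regulatory myosin light chain (chromosome 12, bases 41831137 to 41835806), stood at 63015, 80214 and 65287 FPKM in PE libraries, against 35682, 31271 and 22984 FPKM in Vehicle libraries (1.23 ± 0.23, adjusted p = 0.00089). It is the most abundant gene in each library, so quantile normalization sets its change to 0 by construction, and its call was lost there and with no filter (adjusted p = 0.888). Uqcr10, a small subunit of mitochondrial complex III, changed by 0.74 ± 0.18 (adjusted p = 0.0049), but by -0.91 after quantile normalization, which turned its direction, and its call was lost with no filter (adjusted p = 0.126). The largest losses in FPKM were those of Mb, myoglobin (1234 ± 329 FPKM in PE and 2277 ± 278 FPKM in Vehicle; -0.91 ± 0.16), and Ftl1, the ferritin light chain (1377 ± 122 FPKM in PE and 2020.5 ± 139 FPKM in Vehicle; -0.55 ± 0.14, or -0.92 after quantile normalization). The actin-sequestering thymosins Tmsb10 (-0.49 ± 0.17) and Tmsb4x (-0.39 ± 0.12) came next, with calls that did not hold without Vehicle replicate 3 (adjusted p = 0.126 and 0.051), without PE replicate 2 (0.089 and 0.066) and without some of the other libraries. Tagln, an actin-binding protein of smooth muscle, averaged 2172 ± 335 FPKM in PE and 2809 ± 405 FPKM in Vehicle and did not pass (-0.37 ± 0.18, adjusted p = 0.13), but was called lower after quantile normalization (-0.88, adjusted p = 0.0051) and in the fit with the replicate block (adjusted p = 0.022).

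The receptors of PE moved in different directions. Adra1a, the alpha1A receptor (chromosome 15, bases 48203507 to 48295024), stood at 16.3, 15.4 and 19.1 FPKM in PE libraries, against 5.41, 6.49 and 11.1 FPKM in Vehicle libraries (1.10 ± 0.25, adjusted p = 0.0033). Adra1b, the alpha1B receptor (chromosome 10, bases 29233972 to 29291344), stood at 4.74, 4.94 and 5.12 FPKM in PE libraries, against 10.2, 8.90 and 8.93 FPKM in Vehicle libraries (-0.80 ± 0.13, adjusted p = 0.00038). Neither gene's groups overlapped, as in 3145 of the 3205 genes called. Adra1d, the alpha1D receptor, stood at 3.59, 0.857 and 0.314 FPKM in PE libraries, against 1.6, 1.01 and 1.28 FPKM in Vehicle libraries, where PE replicate 1 was above and PE replicates 2 and 3 were below every Vehicle library (-0.03 ± 0.42, adjusted p = 0.97). The beta1 receptor Adrb1 averaged 8.40 ± 0.95 FPKM in PE and 11.3 ± 2.94 FPKM in Vehicle and did not pass (-0.36 ± 0.15, adjusted p = 0.068), but was called lower in the fit with the replicate block (adjusted p = 0.030) and without Vehicle replicate 1 (-0.52, adjusted p = 0.016).

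Downstream of the receptors, 5 of 32 tested genes of adrenergic and Gq signalling rose and 3 fell, a share of 25.0% called that is near the 30.6% of all genes, and 5 fell in the fit with the replicate block. Gnaq, the Gq alpha subunit, averaged 24.6 ± 6.24 FPKM in PE and 27.2 ± 1.29 FPKM in Vehicle (-0.17 ± 0.17, adjusted p = 0.47). Prkca, the main classical protein kinase C of the heart, rose by 0.65 ± 0.09 (adjusted p = 8.3e-05), and Rgs2, which speeds the shut-off of Gq, by 1.08 ± 0.20. Plcb3, a phospholipase C, fell (-0.53 ± 0.12). Of 17 genes of calcineurin and NFAT signalling 5 rose and 2 fell (41.2% called). Rcan1, an inhibitor and transcriptional target of calcineurin (chromosome 11, bases 36145269 to 36155595), stood at 279, 277 and 266 FPKM in PE libraries, against 131, 114 and 102 FPKM in Vehicle libraries (1.24 ± 0.14, adjusted p = 1.2e-05). Myoz2, which tethers calcineurin at the Z-disc, rose by 1.49 ± 0.10 and the transcription factor Nfatc1 by 0.56 ± 0.15. With 1 library left out, at most 1 gene of the list fell.

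Of 16 tested feedback inhibitors of the MAP kinases 9 rose and none fell (56.2% called, against 30.6% of all genes). Their median was 0.46, against -0.01 over all genes. Dusp4, a nuclear phosphatase of MAP kinases (chromosome 16, bases 60750785 to 60760965), stood at 19.9, 25.5 and 20.1 FPKM in PE libraries, against 4.42, 3.07 and 4.85 FPKM in Vehicle libraries (2.17 ± 0.21, adjusted p = 2.6e-06). Dusp8, a phosphatase of JNK and p38, stood at 32.7, 35.2 and 44.7 FPKM in PE libraries, against 8.17, 8.10 and 8.58 FPKM in Vehicle libraries (2.04 ± 0.19, adjusted p = 1.8e-06). Dusp6, the phosphatase of ERK in the cytoplasm, rose by 1.10 ± 0.23, Dusp3 by 0.90 ± 0.08 and Spry2, an inhibitor of receptor tyrosine kinase signalling, by 0.58 ± 0.14. In all 5 the groups did not overlap, as in 3145 of the 3205 genes called. Dusp1 averaged 54.8 ± 9.70 FPKM in PE and 53.8 ± 5.54 FPKM in Vehicle and did not pass (0.02 ± 0.14, adjusted p = 0.95).

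Immediate early genes, read here at 48 h, were mixed. Of 23 tested AP-1 and early growth response factors 7 rose and 1 fell (34.8% called, near the 30.6% of all genes), with a median of 0.03, and 2 fell without Vehicle replicate 3 or in the fit with the replicate block. The orphan receptor Nr4a3 stood at 3.85, 3.74 and 2.81 FPKM in PE libraries, against 0.9, 0.551 and 0.695 FPKM in Vehicle libraries (1.38 ± 0.18, adjusted p = 3.7e-05), or 2.14 on the log2 scale with a pseudocount of 0.1. Ier3 rose by 1.03 ± 0.15, Nr4a1 by 0.78 ± 0.15, Jund by 0.71 ± 0.11 and Jun by 0.59 ± 0.14, the last 2 being subunits of AP-1. Klf10 fell by 0.89 on the log2 scale. Fos (0.21 ± 0.29, adjusted p = 0.62), Egr1 (-0.47 ± 0.56, adjusted p = 0.56) and Myc (-0.16 ± 0.30, adjusted p = 0.72) did not pass, and their groups overlapped. Egr1 averaged 13.6 ± 6.87 FPKM in PE and 20.5 ± 12.3 FPKM in Vehicle, so its spread within groups was as large as its difference between them.

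Of 12 tested genes of the natriuretic peptide system 4 rose and 2 fell (50% called, against 30.6% of all genes). There was 1 fall without Vehicle replicate 2 or 3 or PE replicate 2 or 3. Beside Nppa and Nppb, the cGMP-dependent kinase Prkg1 rose by 0.69 ± 0.13. Npr3, the clearance receptor of these peptides, stood at 16.7, 11 and 13.8 FPKM in PE libraries, against 25.6, 21.8 and 30.2 FPKM in Vehicle libraries (-0.87 ± 0.19, adjusted p = 0.0026). Npr1, the guanylyl cyclase receptor of ANP and BNP, averaged 1.63 ± 0.533 FPKM in PE and 1.83 ± 0.0477 FPKM in Vehicle and did not pass (-0.13 ± 0.17, adjusted p = 0.62). Of 41 growth factors and hormones 4 rose and 6 fell (24.4% called). Without Vehicle replicate 3, PE replicate 1 or PE replicate 2, 3, 3 and 2 fell, and in the fit with the replicate block 8 rose and 11 fell. Bmp7, a bone morphogenetic protein, rose by 1.11 ± 0.20, Bdnf by 0.77 ± 0.19 and Tgfb2, a transforming growth factor, by 0.62 ± 0.17. Vegfa (0.21 ± 0.11, adjusted p = 0.14), Gdf15 (0.12 ± 0.21, adjusted p = 0.7) and Edn1, endothelin (-0.49 ± 0.38, adjusted p = 0.36), did not pass, but Vegfa was called higher in the fit of the compared groups only (adjusted p = 0.049). Of 16 genes of the IGF system 4 rose and 3 fell (43.75% called). There were 2 rises without Vehicle replicate 2 or PE replicate 1 and 1 fall without Vehicle replicate 3 or PE replicate 2, against 7 falls in the fit with the replicate block. The fall of Igfbp3 held in each, and the receptor Igf1r rose by 0.50 ± 0.13 (adjusted p = 0.0067).

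Of 26 tested genes of the Z-disc and its stretch sensors, 23 rose and none fell (88.5% called, against 30.6% of all genes; median 0.93), and after quantile normalization 18 rose. Csrp3, the muscle LIM protein (chromosome 1, bases 105206459 to 105217109), stood at 2556, 3013 and 2478 FPKM in PE libraries, against 853, 600.3 and 443 FPKM in Vehicle libraries (2.13 ± 0.20, adjusted p = 1.5e-06). Ankrd1, a stretch-responsive ankyrin repeat protein, stood at 6996, 7972 and 7212 FPKM in PE libraries, against 2555, 2294 and 2042 FPKM in Vehicle libraries (1.69 ± 0.17, adjusted p = 4.1e-06), and changed by 1.00 after quantile normalization. Synpo2, an actin-bundling protein of the Z-disc, rose by 1.47 ± 0.15, its relative Synpo2l by 1.31 ± 0.20, and the small heat shock protein Hspb7 by 1.24 ± 0.12. Actn2, the alpha-actinin that crosslinks actin at the Z-disc, rose by 0.95 ± 0.10, or 0.60 after quantile normalization. Des, the intermediate filament protein desmin, rose by 1.09 ± 0.16, and Flnc, the muscle filamin, by 0.91 ± 0.17.

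Of 14 tested thin filament genes 9 rose and none fell (64.3% called, against 30.6% of all genes, median 0.75), and after quantile normalization 6 rose and 3 fell. Actc1, the cardiac alpha-actin (chromosome 3, bases 112080853 to 112086389), stood at 16152, 15367 and 14716 FPKM in PE libraries, against 4591, 4137 and 3850.2 FPKM in Vehicle libraries (1.88 ± 0.14, adjusted p = 2.6e-07). All PE libraries were above 3 times the highest Vehicle library, and after quantile normalization the change was 0.74. Tpm1, the muscle tropomyosin (1.08 ± 0.11), and Tnnc1, cardiac troponin C (1.07 ± 0.13), also rose, with changes of 0.10 and 0.11 and no call after quantile normalization (adjusted p = 0.322 and 0.321). Tnni3, the adult cardiac troponin I, averaged 2612 ± 376 FPKM in PE and 1549.7 ± 99.7 FPKM in Vehicle and rose by 0.74 ± 0.14 (0.36 after quantile normalization). Tnni1, the troponin I of the fetal heart, averaged 521 ± 131 FPKM in PE and 831 ± 167 FPKM in Vehicle and did not pass (-0.69 ± 0.35, adjusted p = 0.15). It was called lower after quantile normalization, with the replicate block and in the fit of the compared groups only. The smooth muscle actin Acta2 averaged 2369 ± 575 FPKM in PE and 2236 ± 329.9 FPKM in Vehicle (0.06 ± 0.18, adjusted p = 0.82).

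Of 16 tested thick filament genes 8 rose and 1 fell (56.25% called, against 30.6% of all genes, median 0.49). After quantile normalization 5 rose. Myl3, the ventricular essential light chain, stood at 5671, 5561 and 5130.0 FPKM in PE libraries, against 1985, 1796 and 1459 FPKM in Vehicle libraries (1.65 ± 0.14, adjusted p = 5.6e-07). Myh7, the slow beta-myosin heavy chain that rises in hypertrophy, stood at 2782, 3019 and 3063 FPKM in PE libraries, against 1089, 916 and 935 FPKM in Vehicle libraries (1.59 ± 0.50, adjusted p = 0.024). The libraries of Myh7 did not overlap. Its SE rests on the residual spread of all 18 libraries, those with Senexin A included, and not on these 6 alone. The call of Myh7 was lost without PE replicate 1, 2 or 3 (adjusted p = 0.053, 0.060 and 0.055) and without Vehicle replicate 2 or 3 (0.061 and 0.067). It was also lost with no filter (0.071) and after quantile normalization (0.101). Myh6, the fast alpha-myosin heavy chain, stood at 1175, 200.1 and 77.1 FPKM in PE libraries, against 397, 240.4 and 149 FPKM in Vehicle libraries (0.12 ± 0.69, adjusted p = 0.92). Its PE replicate 1 was the highest and its PE replicate 3 the lowest of all 6 libraries. Myh6 and Myh7 are near-identical neighbours, so their values are uncertain. The atrial light chains Myl7 (561 ± 518 FPKM in PE and 657 ± 570.2 FPKM in Vehicle) and Myl4 (959.7 ± 682 FPKM in PE and 565 ± 543 FPKM in Vehicle) varied as widely within groups and did not pass (adjusted p = 0.89 and 0.33), but Myl4 was called higher in the fit with the replicate block (1.04, adjusted p = 0.020).

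**Figure D3:**
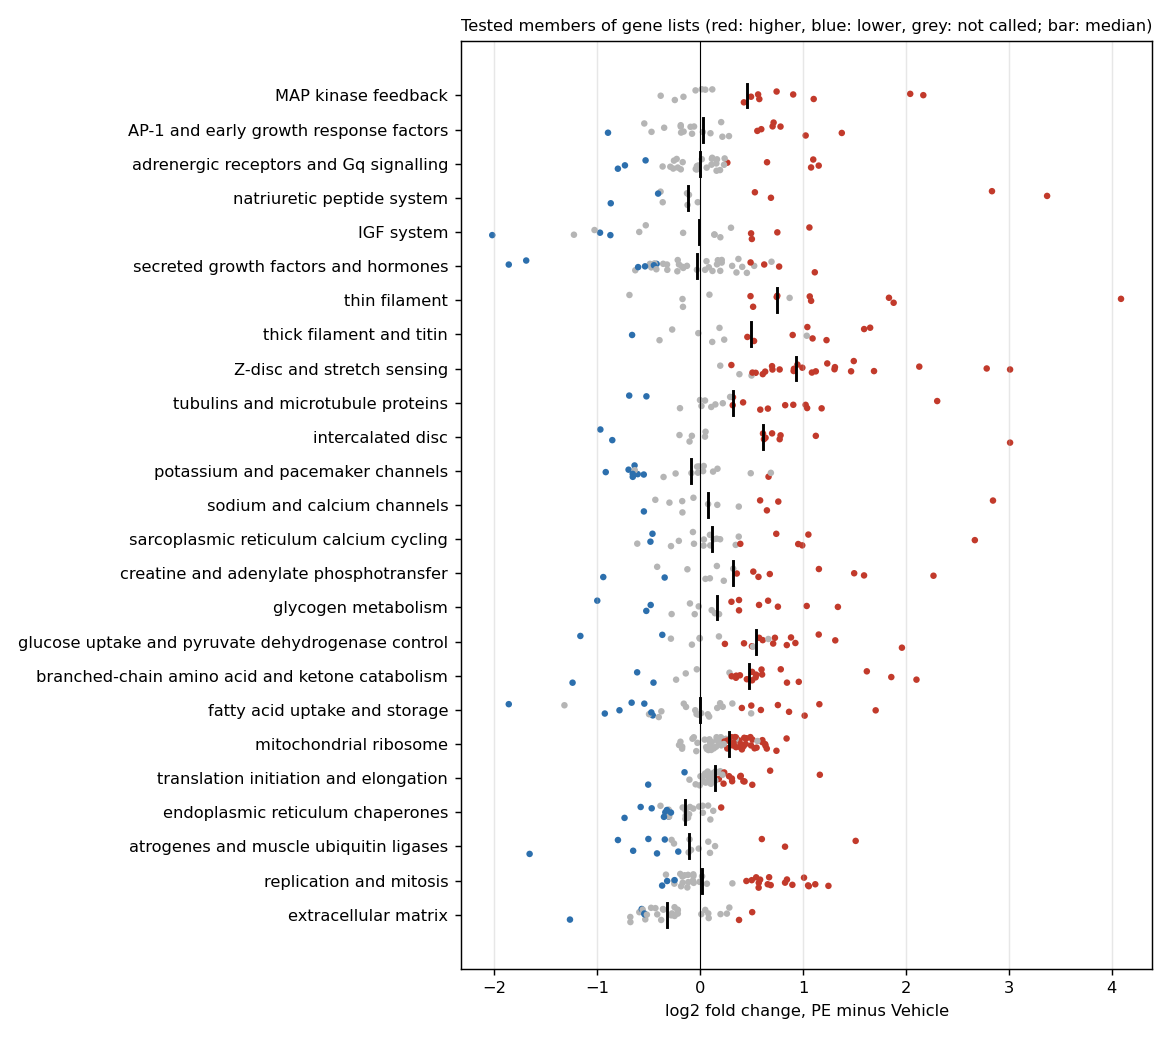
Log2 fold change, PE minus Vehicle (horizontal axis), of each tested member of 25 gene lists (rows), red where the gene was called higher, blue where lower and grey where not called, with the list's median as a black bar. The Z-disc row lies to the right of 0 in all its members, while the rows of potassium channels and extracellular matrix are among several with medians below 0.

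Of 21 tested tubulins and microtubule proteins 11 rose and 2 fell (61.9% called, against 30.6% of all genes, median 0.32). After quantile normalization 7 rose, and 1 fell without Vehicle replicate 3 or PE replicate 2. Tuba4a (chromosome 9, bases 82184865 to 82188549) stood at 248, 228 and 216 FPKM in PE libraries, against 45.1, 40.5 and 52.8 FPKM in Vehicle libraries, with every PE library above 4 times the highest Vehicle library (adjusted p = 5.4e-07). Tubb4b rose by 1.18 ± 0.10, Tuba1a by 1.04 ± 0.17 and Tuba1c by 1.03 ± 0.09. Tubulins are a multigene family with near-identical coding sequence, and which copy the reads came from is uncertain.

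At the intercalated disc, adhesion and gap junction genes differed in direction. Of 15 tested genes 8 rose and 2 fell (66.7% called, against 30.6% of all genes), with 1 fall without PE replicate 1. The catenin Ctnna1 (0.77 ± 0.17, or 0.50 after quantile normalization) and the plakophilin Pkp2 (0.64 ± 0.14), which join actin and desmosomes to the membrane, rose. Gja1, connexin 43, the main gap junction protein of the ventricle (chromosome 20, bases 39612108 to 39624552), stood at 218, 229.5 and 237 FPKM in PE libraries, against 405, 419.6 and 414 FPKM in Vehicle libraries (-0.85 ± 0.10, adjusted p = 9.8e-06). Its 3 libraries in each group lay within a few percent of their mean, and the ratio of the mean FPKM, PE over Vehicle, was 0.553. Gja5, connexin 40 of the atria and the conduction system, stood at 15.9, 15.8 and 23.9 FPKM in PE libraries, against 38.5, 33.1 and 38.4 FPKM in Vehicle libraries (-0.97 ± 0.27, adjusted p = 0.012), and its call did not hold without PE replicate 1 (0.050).

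Of 21 tested potassium and pacemaker channel genes 1 rose and 7 fell (38.1% called, near the 30.6% of all genes). Without Vehicle replicate 2, Vehicle replicate 3, PE replicate 1 or PE replicate 3 the falls numbered 4, 3, 4 and 4, and the rises were 0 without PE replicate 1 and 2 without PE replicate 3. Kcnj11, the pore of the ATP-sensitive channel, stood at 13.7, 12.9 and 14.6 FPKM in PE libraries, against 22.1, 23.1 and 23.3 FPKM in Vehicle libraries (-0.69 ± 0.09, adjusted p = 2.7e-05). Kcnd3, of the transient outward current, fell to 3.69 ± 0.153 FPKM in PE, against 6.36 ± 1.19 FPKM in Vehicle (-0.64 ± 0.13), and Kcnj12, of the inward rectifier, to 8.45 ± 0.494 FPKM in PE, against 13.4 ± 0.896 FPKM in Vehicle (-0.61 ± 0.16). These 3 calls held in every alternative. Of 13 sodium and calcium channel genes 4 rose and 1 fell (38.5% called). There was no fall without Vehicle replicate 2, and there were 2 falls after quantile normalization and in the fit with the replicate block. Scn3b (chromosome 8, bases 61379751 to 61402266), an auxiliary subunit, stood at 23.7, 28.5 and 29.6 FPKM in PE libraries, against 5.02, 2.30 and 2.02 FPKM in Vehicle libraries. Cacna2d1 (0.58 ± 0.12) and Cacnb2 (0.65 ± 0.13), auxiliary subunits of the L-type calcium channel, rose, while its pore Cacna1c (-0.30 ± 0.12, adjusted p = 0.078) did not pass. Cacna1c was called lower after quantile normalization and in the fit of the compared groups only.

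Of 22 tested genes of sarcoplasmic reticulum calcium cycling 6 rose and 2 fell (36.4% called, near the 30.6% of all genes). There was 1 fall without Vehicle replicate 3 or PE replicate 1, and there were 4 in the fit with the replicate block. Casq2, the calsequestrin of the heart that stores calcium, rose by 1.05 ± 0.17 to 1402 ± 132 FPKM in PE, against 676 ± 63.6 FPKM in Vehicle. Jph2, which ties the reticulum to the T-tubule, rose by 0.99 ± 0.13, and Slc8a1, the sodium-calcium exchanger, by 0.74 ± 0.10 (0.46 after quantile normalization). Pln, phospholamban, the inhibitor of the calcium pump, averaged 1076 ± 94.7 FPKM in PE and 1500.1 ± 56.2 FPKM in Vehicle and fell (-0.48 ± 0.12, adjusted p = 0.0059, or -0.84 after quantile normalization). The pump itself, Atp2a2 (SERCA2), stood at 907, 646 and 573 FPKM in PE libraries, against 709, 653 and 593 FPKM in Vehicle libraries, and its groups overlapped (0.10 ± 0.19, adjusted p = 0.74). The release channel Ryr2 averaged 80.1 ± 9.66 FPKM in PE and 61.6 ± 8.45 FPKM in Vehicle (0.38 ± 0.16, adjusted p = 0.085).

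Of 24 tested genes of branched-chain amino acid and ketone breakdown 17 rose and 3 fell (83.3% called, against 30.6% of all genes, median 0.48). There were 11 rises without Vehicle replicate 3, PE replicate 1 or PE replicate 2. After quantile normalization 5 fell. Bdh1, which oxidizes beta-hydroxybutyrate (chromosome 11, bases 75653264 to 75688263), stood at 56.4, 46.7 and 37.0 FPKM in PE libraries, against 10.6, 10.4 and 8.93 FPKM in Vehicle libraries (2.10 ± 0.20, adjusted p = 1.7e-06). Oxct1, which passes coenzyme A to acetoacetate, stood at 347, 319.9 and 296 FPKM in PE libraries, against 121, 78.4 and 71.0 FPKM in Vehicle libraries (1.86 ± 0.19, adjusted p = 4.5e-06). Pcca, of propionyl-CoA carboxylase, rose by 1.62 ± 0.14 and Ppm1k, the phosphatase that turns on the branched-chain dehydrogenase, by 0.96 ± 0.14. PE libraries were above all Vehicle libraries in Bdh1 and Oxct1.

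Of 22 tested genes of glucose uptake and pyruvate dehydrogenase control 13 rose and 2 fell (68.2% called, against 30.6% of all genes, median 0.54). There was 1 fall without Vehicle replicate 2 or 3 or PE replicate 1 or 3. Slc16a3, a lactate exporter (MCT4), stood at 57.6, 49.6 and 42.0 FPKM in PE libraries, against 11.4, 11.3 and 13.1 FPKM in Vehicle libraries (1.96 ± 0.17, adjusted p = 6.7e-07). Mpc1, of the mitochondrial pyruvate carrier, rose by 1.15 ± 0.24, Pdha1, a subunit of pyruvate dehydrogenase, by 1.31 ± 0.12, and the second lactate carrier Slc16a1 by 0.93 ± 0.11. The glucose transporters Slc2a1 (-0.08 ± 0.12, adjusted p = 0.66) and Slc2a4 (0.66 ± 0.43, adjusted p = 0.26) did not pass. Of 18 glycogen genes 8 rose and 3 fell (61.1% called). Pgm1, the phosphoglucomutase, rose by 1.34 ± 0.14, Gyg1, the glycogenin that primes glycogen, by 1.04 ± 0.17 (0.68 after quantile normalization), and the muscle glycogen synthase Gys1 by 0.57 ± 0.11. The brain-type phosphorylase Pygb (-0.48 ± 0.11) and the phosphatase targeting subunit Ppp1r3b (-1.0 ± 0.20) fell.

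Of 17 tested genes of creatine and adenylate phosphotransfer 8 rose and 2 fell (58.8% called, against 30.6% of all genes, median 0.32). None fell without Vehicle replicate 2 or 3 or PE replicate 1, and 1 fell without Vehicle replicate 1 or PE replicate 2 or 3 and after quantile normalization. Ckmt2, the sarcomeric mitochondrial creatine kinase, stood at 72.1, 30.4 and 45.4 FPKM in PE libraries, against 12.3, 4.97 and 11.1 FPKM in Vehicle libraries (2.27 ± 0.47, adjusted p = 0.0019). The replicate 2 libraries were the lowest of their group in PE and in Vehicle. Gatm, the first enzyme of creatine synthesis, rose by 1.59 ± 0.32 and Ckb, the brain-type creatine kinase, by 1.15 ± 0.18. Ckm, the muscle-type kinase, averaged 375 ± 23.7 FPKM in PE and 362 ± 1.99 FPKM in Vehicle and did not pass (0.05 ± 0.12, adjusted p = 0.78). Of 32 genes of fatty acid uptake and storage 8 rose and 7 fell (46.9% called). The acyl-CoA synthetases Acsl4 (1.16 ± 0.16) and Acsl3 (1.02 ± 0.09) rose, and the fatty acid transporter Slc27a1 (-0.93 ± 0.13) and the lipase Lipe (-0.78 ± 0.12) fell. Cpt1b, the muscle gate of mitochondrial fatty acid entry, averaged 106 ± 7.16 FPKM in PE and 93.5 ± 19.3 FPKM in Vehicle and did not pass (0.19 ± 0.13, adjusted p = 0.28).

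Of 66 tested genes of the mitochondrial ribosome 32 rose and none fell (48.5% called, against 30.6% of all genes, median 0.28). There were 21 rises without Vehicle replicate 3 or PE replicate 1. After quantile normalization 23 rose and 4 fell, and 1 fell without PE replicate 2 or 3. Mrps22 rose by 0.65 ± 0.11. The counts include Mrps36 (0.84 ± 0.14), whose place in this ribosome is uncertain. Of 35 genes of mitochondrial biogenesis and dynamics 20 rose and 1 fell (60% called), and 13 rose without Vehicle replicate 3 and after quantile normalization. None fell without Vehicle replicate 1 or PE replicate 3. Dnm1l, the fission dynamin, rose by 0.67 ± 0.11 and Tomm40, the outer membrane import pore, by 0.62 ± 0.10. Ppargc1a, the coactivator that drives mitochondrial biogenesis, averaged 16.6 ± 1.85 FPKM in PE and 15.5 ± 1.64 FPKM in Vehicle and did not pass (0.09 ± 0.22, adjusted p = 0.8).

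Of 38 tested translation factors 13 rose and 2 fell (39.5% called; median 0.15), and 7 rose and 4 fell after quantile normalization. With any 1 library left out 1 fell. Eef1a2, the elongation factor isoform of muscle and neurons, stood at 544, 499 and 489.8 FPKM in PE libraries, against 243, 231 and 209 FPKM in Vehicle libraries (1.16 ± 0.12, adjusted p = 5.7e-06). Eif4e, the cap-binding protein, rose by 0.43 ± 0.07, and Eef2k, the kinase that slows elongation, fell (-0.50 ± 0.09). Of 33 genes of ribosome biogenesis 6 rose (18.2% called, against 30.6% of all genes), and 3, 2 and 1 did without Vehicle replicates 1, 2 and 3 and 2 without PE replicate 1 or 3. After quantile normalization 3 rose and 5 fell. Of 34 proteasome genes 16 rose (47.1%), 6 without Vehicle replicate 3, 7 without PE replicate 1 and 7 after quantile normalization, where 5 fell. Psmd14 rose by 0.57 ± 0.10. Of 27 endoplasmic reticulum chaperones 1 rose and 8 fell (33.3% called, near the 30.6% of all genes). The falls numbered 4 without Vehicle replicate 3, PE replicate 1 or PE replicate 2, against 14 after quantile normalization. The rise did not hold in any omission other than that of PE replicate 1. Pdia4, a disulfide isomerase, fell to 77.2 ± 9.08 FPKM in PE, against 115 ± 8.70 FPKM in Vehicle (-0.58 ± 0.11), and Calr, calreticulin, fell (-0.30 ± 0.07, or -0.65 after quantile normalization).

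Of 19 tested atrophy genes and muscle ubiquitin ligases 3 rose and 7 fell (52.6% called, against 30.6% of all genes). Foxo1, a transcription factor that drives atrophy genes, stood at 4.21, 4.09 and 4.0 FPKM in PE libraries, against 6.74, 8.66 and 8.31 FPKM in Vehicle libraries (-0.80 ± 0.13, adjusted p = 0.00035). Fbxo32, the ligase atrogin-1, fell to 16.3 ± 1.70 FPKM in PE, against 26.1 ± 2.08 FPKM in Vehicle (-0.65 ± 0.14). Fbxl22, a ubiquitin ligase subunit of the Z-disc, stood at 33.6, 28.1 and 22.5 FPKM in PE libraries, against 10.8, 9.12 and 7.55 FPKM in Vehicle libraries (1.51 ± 0.15, adjusted p = 3.8e-06), higher in every PE library.

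Cell cycle genes rose in part. Of 39 tested replication and mitosis genes 17 rose and 3 fell (51.3% called). The falls numbered 1, 0 and 0 without Vehicle replicate 1, Vehicle replicate 2 and PE replicate 1. The 17 included mitotic cyclins, kinases and motor proteins. Ccnb1, the mitotic cyclin, stood at 32.3, 37.2 and 40.9 FPKM in PE libraries, against 15.3, 17.4 and 12.3 FPKM in Vehicle libraries (1.25 ± 0.18, adjusted p = 9.4e-05). Aurka, a kinase of the spindle pole, rose by 1.12 ± 0.16 and Cdk1, the mitotic kinase, by 0.58 ± 0.13. Pcna, the sliding clamp of replication, averaged 154 ± 15.8 FPKM in PE and 169 ± 29.1 FPKM in Vehicle and did not pass (-0.12 ± 0.14, adjusted p = 0.56). Of 20 genes of G1 control 3 rose and 3 fell (a share near the 30.6% of all genes), with 1 rise without Vehicle replicate 3 or PE replicate 1, and 5 falls after quantile normalization and in the fit with the replicate block. Ccnd1, cyclin D1, rose by 1.04 ± 0.20, and Cdkn1c, the cyclin kinase inhibitor p57, stood at 10.9, 15.6 and 10.6 FPKM in PE libraries, against 32.4, 40.4 and 34.9 FPKM in Vehicle libraries (-1.48 ± 0.19, adjusted p = 2.8e-05).

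Of 32 tested transcription factors of the heart 3 rose and 6 fell (28.1% called, near the 30.6% of all genes), and 10 fell after quantile normalization and in the fit with the replicate block. Gata4 rose by 0.51 ± 0.09 (0.32 after quantile normalization) and Myocd, the partner of serum response factor, by 0.79 ± 0.20. Srf itself rose by 0.39 ± 0.07 (0.24 after quantile normalization). Irx4, a factor of ventricular identity, fell to 25.7 ± 5.11 FPKM in PE, against 44.6 ± 9.60 FPKM in Vehicle (-0.77 ± 0.20), and the retinoid receptor Rxra to 16.3 ± 1.51 FPKM in PE, against 26.7 ± 3.16 FPKM in Vehicle (-0.68 ± 0.14). Nkx2-5 (0.16 ± 0.10, adjusted p = 0.25), Mef2a (-0.21 ± 0.11, adjusted p = 0.14) and Mef2d (0.15 ± 0.12, adjusted p = 0.37) did not pass, and Mef2a was called lower after quantile normalization and in the fit of the compared groups only.

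The sites of these factors were counted in RefSeq promoters of the window given above, on both strands. Of the 260 genes at least 2-fold higher, 184 had a promoter in the table, as did 45 of the 74 at least 2-fold lower and 8519 of the 10478 tested. A MEF2 site stood in 9 of 184 (4.89%) promoters of higher genes, 0 of 45 of lower genes and 39 of 8519 (0.458%) of all tested genes. A CArG box stood in 7 of 184 (3.8%), 0 of 45 and 107 of 8519 (1.26%). The M-CAT letters CATTCC stood in 15.8% of promoters of higher genes, 11.1% of lower genes and 11.1% of all tested. AGATAA, the letters of a GATA factor site, stood in 5.98%, 11.1% and 5.79%, TGANTCA (AP-1) in 7.61%, 2.22% and 4.72%, and TCACNCCAC (a sterol regulatory element) in 1.63%, 0 and 1.19%. In all 27457 promoters of the table the shares were 0.605% for MEF2, 1.64% for CArG, 13.9% for M-CAT, 11.3% for GATA, 7.33% for AP-1 and 1.13% for the sterol element. A match is a run of letters and not a measured binding site, and no base of the 4 promoters printed lay in the matches of 2 motifs.

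The CArG boxes and MEF2 sites found in genes at least 2-fold higher are printed with their first base counted from the start, since they show how far the matches differ within each motif. The CArG boxes were those of Acta1, Actc1, Fbxl22, Fhl1, Myl3, Ppif (cyclophilin D of the mitochondrial matrix, which rose by 1.16 ± 0.09) and Rnf128 (a ubiquitin ligase, 1.07 ± 0.14). The MEF2 sites were those of Xirp2, Myoz2, Ckb, Cox6a2 (the muscle isoform of a cytochrome oxidase subunit, 1.12 ± 0.17, or 0.71 after quantile normalization), Hspb3 and Hspb7 (small heat shock proteins of muscle, 1.29 ± 0.16 and 1.24 ± 0.12), Klhl41 (a kelch protein of striated muscle, 1.20 ± 0.20), Trim72 (a membrane repair protein of muscle, 1.55 ± 0.25) and Dupd1 (a dual-specificity phosphatase, 1.39 ± 0.14, or 3.42 with a pseudocount of 0.1).
Acta1 CArG box at -94: CCAAATATGG
Actc1 CArG box at 3: CCAAATAAGG
Fbxl22 CArG box at -204: CCTTTTAAGG
Fhl1 CArG box at -102: CCTAAAATGG
Myl3 CArG box at -97: CCTTTTATGG
Ppif CArG box at -79: CCAATAAAGG
Rnf128 CArG box at -194: CCTAAAAAGG
Ckb MEF2 site at -76: CTATAAATAG
Cox6a2 MEF2 site at -50: CTAAAAATAG
Dupd1 MEF2 site at -28: CTAAAAATAG
Hspb3 MEF2 site at -51: CTATAAATAG
Hspb7 MEF2 site at -96: CTAAATTTAG
Klhl41 MEF2 site at -142: CTATATTTAG
Myoz2 MEF2 site at -53: CTATATATAG
Trim72 MEF2 site at -150: CTAAATATAG
Xirp2 MEF2 site at -74: CTAAAAATAG

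Cell type markers were summed to show which cell types' transcripts the libraries held. The 11 cardiomyocyte markers in the table summed to 98028, 101304 and 116761 FPKM (lowest, median and highest) in PE libraries and 38001, 48541 and 53335 FPKM in Vehicle libraries. Of these 11, 8 rose and 1 fell, and 4 rose and 2 fell after quantile normalization. Myl2 alone gave 63015, 80214 and 65287 FPKM in PE replicates 1, 2 and 3. It rose with PE, so this sum holds the PE response and does not measure the content of cardiomyocytes. The 12 fibroblast markers summed to 1278, 1354 and 2026.5 FPKM in PE replicates 1, 2 and 3 and to 1880.5, 1980 and 3159.5 FPKM in Vehicle replicates 1, 2 and 3, lower in the PE library of each of the 3 same-number pairs. None of 11 tested fibroblast markers was called in limma, where 1 was lower at an unadjusted p under 0.05. With the replicate block 6 were called lower, and 3 were after quantile normalization. Col1a1, a chain of the fibrillar collagen of fibroblasts, averaged 634 ± 135 FPKM in PE and 955 ± 205 FPKM in Vehicle (-0.59 ± 0.29, adjusted p = 0.13). It was called lower in the fit with the replicate block (adjusted p = 0.0024), after quantile normalization (-1.03, adjusted p = 0.019) and in the fit of the compared groups only (adjusted p = 0.047). Col1a2, the partner chain of Col1a1, was listed near the floor of the table in both groups (means of 0.0123 FPKM in PE and 0.0118 FPKM in Vehicle) and was not tested. With Col1a1 abundant, the Col1a2 value is uncertain, and it adds next to nothing to the fibroblast sum. The 12 markers of smooth muscle and pericytes summed to 4076.5 to 6046 FPKM in PE and 4756 to 6420 FPKM in Vehicle. The 12 endothelial markers summed to 19.2 to 21.1 FPKM in PE and 24.5 to 28.7 FPKM in Vehicle, and Cdh5, Kdr, Vwf, Robo4 and Erg were below 1 FPKM in all 6 libraries. The 12 macrophage and leukocyte markers summed to 19.5 to 89.8 FPKM in PE and 38.6 to 120.3 FPKM in Vehicle. All 6 erythroid markers were below 1 FPKM. The labelled cell type's markers led in each library, and fibroblast and smooth muscle transcripts were present in both groups. Of 32 tested genes of the extracellular matrix 2 rose and 4 fell (18.75% called, below the 30.6% of all genes, with a median of -0.32). With a library left out 1 to 5 fell (1 without Vehicle replicate 3 or PE replicate 2, and 2 without PE replicate 1), and 1 rose without Vehicle replicate 2 or PE replicate 1. There were 14 falls after quantile normalization, with no rise, and 17 in the fit with the replicate block. Beside these falls, fibroblast marker sums were lower in PE in each same-number pair. So were the sums of endothelial, macrophage and epicardial markers, the last at 47.2 to 87.4 FPKM in PE and 66.7 to 89.8 FPKM in Vehicle. Sums of smooth muscle markers and of Schwann and neuronal markers went both ways between pairs. The part of any of these cell types in the result was not tested.

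**Figure D4:**
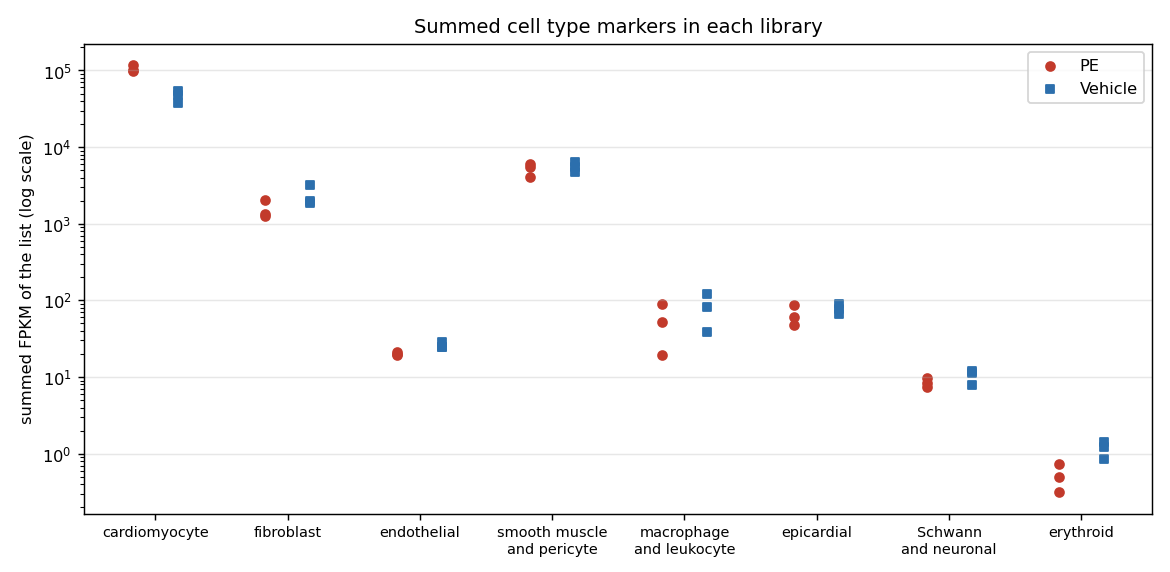
Summed FPKM (log axis) of 8 lists of cell type markers in each library (red circles, PE; blue squares, Vehicle; 3 libraries each). Cardiomyocyte sums lie near or above 98028 FPKM in PE and at or below 53335 FPKM in Vehicle. The sums of fibroblast and smooth muscle markers overlap between the groups. The fibroblast sum is lower in PE in each of the 3 same-number pairs, as are the endothelial, macrophage and epicardial sums.

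Whether the PE response differed in the presence of Senexin A was asked by testing the difference between the PE response with and without it. Which target of the compound a difference came from was not tested. With 10 µM, the difference passed in 32 of 10478 genes (0.305%), and with 50 µM in 734 (7.01%). At 10 µM the difference was positive in 7 of these (0.0668%) and negative in 25 (0.239%), and at 50 µM it was positive in 235 (2.24%) and negative in 499 (4.76%). In cultures with 10 µM, 1286 of the 1874 (68.6%) also rose with PE. They were 65.0% of the 1979 that rose there (18.9% of all tested). With 50 µM 566 (30.2%) also rose, or 58.1% of 975 (9.31% of all tested). These cultures share no library with PE against Vehicle, but the same fit and residual spread gave the SE of each response. Deviations from the group mean also correlated between libraries of the same replicate number across groups. The overlaps are therefore not independent repeats.

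The genes named next were picked among those called for PE alone, and the same PE and Vehicle libraries enter the difference, so the choice itself favours smaller responses with the inhibitor. Acta1 was among them, with one of the smallest adjusted p at each dose. Its PE response was 4.09 ± 0.18 without Senexin A, 2.25 ± 0.18 with 10 µM and 0.02 ± 0.18 with 50 µM, and the difference was -1.84 (adjusted p = 0.0035) at 10 µM and -4.07 (adjusted p = 1.3e-07) at 50 µM. With 50 µM it averaged 1490 ± 163 FPKM with PE and 1471 ± 186 FPKM without it. With 10 µM it averaged 5426 ± 569.6 FPKM with PE and 1169 ± 346 FPKM without it. Without Senexin A it averaged 3078 ± 287 FPKM in PE and 181 ± 33.8 FPKM in Vehicle. The levels of Acta1 without PE were thus above that of Vehicle at each dose. Adamts19, a secreted metalloprotease, stood at 5.87, 6.89 and 7.32 FPKM in PE libraries, against 0.963, 0.636 and 0.674 FPKM in Vehicle libraries, and its response was 2.13 ± 0.13 alone, 0.64 ± 0.13 with 10 µM and 0.09 ± 0.13 with 50 µM. With 10 µM it averaged 1.11 ± 0.161 FPKM with PE and 0.352 ± 0.111 FPKM without it, and with 50 µM 0.226 ± 0.0781 FPKM with PE and 0.151 ± 0.0349 FPKM without it, levels at which the pseudocount of 1 shrinks a response. With a pseudocount of 0.1 the responses of Adamts19 were 3.00, 1.45 and 0.36, and the difference at 10 µM did not pass (-1.55, adjusted p = 0.155) while that at 50 µM did (-2.64, adjusted p = 0.0016). Slc12a7, a potassium-chloride cotransporter, responded by 1.06 ± 0.08 alone, 0.08 ± 0.08 with 10 µM and -0.24 ± 0.08 with 50 µM. It averaged 86.3 ± 4.60 FPKM in PE and 41.0 ± 2.61 FPKM in Vehicle. With 10 µM it averaged 63.2 ± 3.66 FPKM with PE and 59.9 ± 4.98 FPKM without it. With 50 µM it averaged 58.1 ± 1.57 FPKM with PE and 68.9 ± 4.89 FPKM without it. Its levels without PE were thus above that of Vehicle at each dose. Rai2 responded by 1.03 ± 0.10 alone, -0.17 ± 0.10 with 10 µM and -0.34 ± 0.10 with 50 µM. Pdlim5, a Z-disc adaptor, differed at 10 µM, where its response was 0.24 ± 0.07 in place of 0.91 ± 0.07. With 10 µM it averaged 298 ± 2.71 FPKM with PE and 253 ± 11.4 FPKM without it. Without Senexin A it averaged 337 ± 19.1 FPKM in PE and 179 ± 6.89 FPKM in Vehicle. Ptgds, a prostaglandin D synthase, fell with PE alone (-1.07 ± 0.10), and its response with 10 µM was 0.04 ± 0.10. It averaged 8.95 ± 0.315 FPKM in PE and 19.9 ± 0.406 FPKM in Vehicle. With 10 µM it averaged 10.7 ± 1.24 FPKM with PE and 10.3 ± 1.39 FPKM without it. Its level in 10 µM without PE was thus already below that of Vehicle. Sphkap, an anchor of protein kinase A, fell with PE alone (-0.54 ± 0.10) and rose with PE in 50 µM (1.15 ± 0.10). It averaged 7.03 ± 0.205 FPKM in PE and 10.7 ± 0.582 FPKM in Vehicle. With 50 µM it averaged 10.9 ± 1.24 FPKM with PE and 4.35 ± 0.580 FPKM without it. The rise in 50 µM thus began below the Vehicle level and ended near it. Nap1l5 had a larger response with 50 µM (3.25 ± 0.12) than alone (0.44 ± 0.12), and its call alone was lost without Vehicle replicate 1 or PE replicate 1 (adjusted p = 0.074 and 0.050) and in the fit of the compared groups only (0.057). Its row shares a locus with another, so its values are uncertain.

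**Figure D5:**
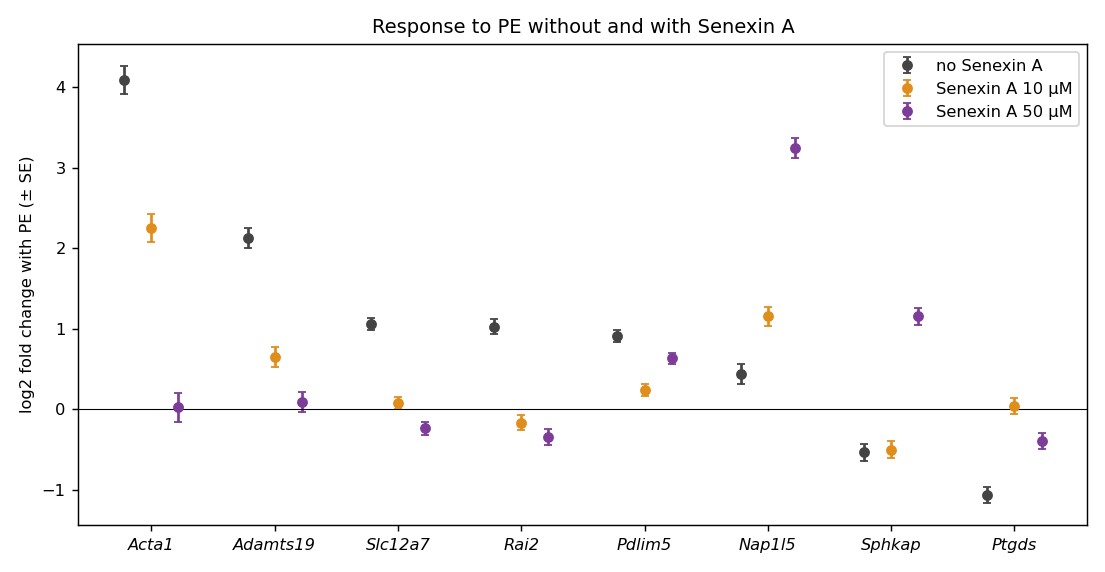
Log2 fold change with PE (vertical axis, ± SE) of 8 genes whose PE response differed with Senexin A, in cultures with no Senexin A (dark grey), 10 µM (orange) and 50 µM (purple). The responses of Acta1 and Adamts19 step down with dose, and those of Nap1l5 and Sphkap are highest at 50 µM. Each response is measured from cultures at the same dose without PE, whose levels differed from Vehicle in several of these genes.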

How the data were processed

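Polyadenylated RNA was sequenced from TruSeq libraries, per the labels' protocols, and the deposited table gives 1 FPKM value per gene and library, made by the authors with Bowtie2 and Cufflinks on the rn5 build, per the submitters' processing notes. For versions, annotation, filters and strand, the sources used here give nothing. The table held 17303 rows with a floor of 0.01 FPKM, and 1000 of the tested rows share their locus with another row. Total reads are unknown, so no counting interval is given and depth was compared only through the steps of low values. Coordinates are given from base 1.

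Rows of at least 1 FPKM in at least 3 of the 18 libraries were tested (10478) as log2(FPKM + 1), which understates the change of low genes, in limma 3.58.1 (R 4.3.3) with a trend of variance on level, 6 group means, 12 residual degrees of freedom and Benjamini-Hochberg adjustment. The median SE was 0.118. The fit was tested on simulated data. Other steps used Python 3.11.15, pandas 2.3.3 and matplotlib 3.10.9. Promoters came from RefSeq (GRCr8), matched by symbol.

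The genes described and the 48 gene lists were chosen with earlier results of these data known. Named were the 15 largest rises and 12 largest falls (called, at least 5 FPKM in a group, no overlap), the 10 largest gains and 5 largest losses in mean FPKM, up to 4 called members per list and others needed to describe it, a panel of hypertrophy genes and alpha1 receptors, and the 6 smallest adjusted p of each interaction. Deviations from the group mean correlated by 0.412 to 0.498 between PE and Vehicle libraries of the same replicate number and by -0.281 to -0.168 between different numbers, and by over 0.1 in all 45 such pairs of the series, so the numbers pair the libraries. Where this pairing comes from is not in the labels. The fit was kept without the block, and the block was an alternative beside leaving out each library, quantile normalization, pseudocounts of 0.1 and 0.5, fitting only the groups compared, median-ratio scaling, and testing all rows or those of at least 5 FPKM. Some genes are not reported here.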

Additional observations from a re-analysis of the deposited data

Results flagged for a closer look

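In 8 genes the PE response differed with Senexin A, tested as an interaction (limma, adjusted over 10478 genes), and these were picked for their small adjusted p among genes that also changed with PE alone. The PE and Vehicle libraries that chose them also enter the difference, which favours smaller responses with the inhibitor. At 10 µM the response differed by -1.84 in Acta1, -1.49 in Adamts19, -0.67 in Pdlim5, 1.11 in Ptgds, -1.20 in Rai2 and -0.98 in Slc12a7 on the log2 scale, response with the inhibitor minus response without it. At 50 µM it differed by -4.07 in Acta1, -2.04 in Adamts19, 2.81 in Nap1l5, -1.37 in Rai2, -1.30 in Slc12a7 and 1.69 in Sphkap. With a pseudocount of 0.1 the difference of Adamts19 at 10 µM was -1.55 and did not pass (adjusted p = 0.155). Acta1 averaged 5426 FPKM with PE in 10 µM, above the 3078 FPKM of PE alone. In 10 µM without PE it averaged 1169 FPKM, against 181 FPKM in Vehicle. Levels in 10 µM without PE were also above Vehicle in Slc12a7 (59.9 against 41.0 FPKM), Pdlim5 (253 against 179) and Rai2 (8.31 against 7.10). That of Adamts19 was lower (0.352 against 0.758). The positive difference of Ptgds stands beside a fall with PE alone. In 10 µM without PE, Ptgds already averaged 10.3 FPKM, against 19.9 FPKM in Vehicle. Sphkap averaged 10.9 FPKM with PE in 50 µM and 4.35 FPKM in 50 µM without PE, against 10.7 FPKM in Vehicle.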

How the results depend on the processing

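Quantile normalization, which gives every library the same distribution, turned the direction of 2 of the 257 called genes among the 293 that were named by the rule or picked for description, Uqcr10 (-0.91 in place of 0.74 ± 0.18) and Tnnt2, cardiac troponin T (-0.53 in place of 0.49 ± 0.15). Of these 257 called genes 192 kept direction and call in all alternatives run (up to 14 a gene) and 65 lost the call or turned in at least 1. With 1 library left out the number of genes changed by PE ran from 2162 to 2846 (3205 with all), of higher genes from 1358 to 1669, and of lower genes from 804 (without Vehicle replicate 3) to 1177, with 857 without PE replicate 1. For the interaction at 10 µM such counts ran from 13 to 34 (32 with all) and at 50 µM from 392 to 921 (734 with all). The interaction at 10 µM passed in 17 genes with no filter.

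The replicate block, which uses the pairing of the libraries by number, called 2411 higher and 2010 lower genes for PE, 230 for the interaction at 10 µM and 1690 at 50 µM. All 3205 genes called without the block were also called with it. Causes of these changes were not tested. With 3 libraries a group and a median SE of 0.118, small changes of variable genes could not be detected.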

Other observations

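Of 24 tested interferon and antigen presentation genes 1 rose and 6 fell (29.2% called, near the 30.6% of all genes). In the fit with the replicate block 2 rose and 10 fell, and 2 rose without PE replicate 3. Irf9, a subunit of the factor that binds interferon-stimulated promoters, stood at 6.56, 6.84 and 5.49 FPKM in PE libraries, against 12.8, 14.2 and 9.30 FPKM in Vehicle libraries (-0.83 ± 0.19, adjusted p = 0.0042). Irf1, another interferon regulatory factor, fell by 0.50 on the log2 scale, while Ifit1, an interferon-induced RNA-binding protein, was higher (2.09, 3.77 and 3.29 FPKM in PE libraries, against 0.66, 0.868 and 0.62 FPKM in Vehicle libraries; 1.22 ± 0.18, or 1.92 with a pseudocount of 0.1). The groups did not overlap in these 3 genes, as in 3145 of the 3205 genes called.

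Of 11 tested genes of polyamine synthesis 4 rose and 2 fell (54.5% called, against 30.6% of all genes). There were 2 rises after quantile normalization and 1 fall without Vehicle replicate 2 or 3 or PE replicate 1 or 2. Azin1, which protects ornithine decarboxylase from breakdown, stood at 138, 129 and 117 FPKM in PE libraries, against 65.6, 59.6 and 57.6 FPKM in Vehicle libraries (1.06 ± 0.14, adjusted p = 3.6e-05), and Odc1, the decarboxylase itself, averaged 78.9 ± 5.33 FPKM in PE and 58.2 ± 2.60 FPKM in Vehicle (0.43 ± 0.08, adjusted p = 0.00076). Of 27 genes of nucleotide synthesis 11 rose and 5 fell (59.3% called), with 7 rises after quantile normalization and 3 falls without PE replicate 1. Rrm2, a subunit of ribonucleotide reductase, rose by 0.92 ± 0.18 and Nme1, a nucleoside diphosphate kinase, by 0.84 ± 0.12. Of 24 chromatin regulators 3 rose and 6 fell (37.5% called), with 3 falls without PE replicate 1. Camta1, a calmodulin-binding transcription activator, rose by 0.94 ± 0.15 and the histone deacetylase Hdac11 fell to 3.26 ± 0.324 FPKM in PE, against 7.0 ± 1.17 FPKM in Vehicle (-0.90 ± 0.18).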
